A study of Mus musculus with 44 samples.

Results

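The genes described here encode the proteins of the mitochondrial ribosome, chosen by name: every gene whose symbol starts with Mrpl or Mrps and a digit, pseudogene copies (-ps) left out. The rule found 76 of 16078 genes in the table of mouse medulloblastomas, 76 of 15926 genes in the table of DOX-treated lines, and 78 genes in each single-cell table, of 16577 genes in fGTS2 cells and 17546 in GTML_SOX9GFP cells. In the open-chromatin tables it found 70 of 88981 regions, near the starts of 68 member genes, and 71 of 88258 regions, near 70 member genes, each region within 1 kb of such a start. The rule uses names and positions.

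RNA was measured in bulk in 6 GTS and 8 GTML tumors, and in the lines GTML3 and preGTS1 under DOX or DMSO, with 3 samples per condition. In the GTML model a tetracycline-dependent MYCN transgene is switched on where the glial transporter gene Glt1 (Slc1a2) is active, and doxycycline, DOX, shuts it off. GTS is a related model that draws on Sox9. DMSO, a solvent, was the control treatment. The sample titles name DOX for GTML3 and preGTS1 only and give no treatment for the other sources. No title names a DOX-treated line without the transgene, so effects of the drug itself and of MYCN loss cannot be told apart. The labels name the lines' sources as GTML and preGTS1 medulloblastoma and do not say how many clones or animals they stand for, and p-values therefore rest on a spread among samples that may be technical. ATAC-seq, which reads open chromatin through transposase insertion, covered both lines under DOX and DMSO, the sources GTS1 and GTS2, and the fractions GFP and NoneGFP, each in duplicate. Single cells came from 1 library labelled fGTS2 and 1 labelled GTML_SOX9GFP.

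Mitochondria keep a ribosome of their own, which translates only the few proteins encoded in mitochondrial DNA, all of them inner-membrane subunits of the respiratory chain and ATP synthase. Every protein of this ribosome is encoded in the nucleus, made in the cytosol and imported, while its RNAs come from mitochondrial DNA. Some of the proteins descend from bacterial ribosomal proteins and others are found only in mitochondria, and the symbols Mrpl and Mrps stand for the large and the small subunit, although Mrps30 and Mrps18a have since been placed in the large one and Mrps36 in the 2-oxoglutarate dehydrogenase complex. Genes for building ribosomes, mitochondrial ones included, are well-known targets of MYC proteins.

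Depth was 10.86 to 24.67 M reads per line RNA library and 0.8274 to 14.95 M reads in regions per ATAC library, where M counts 1000000 reads. Tumor libraries correlated at 0.536 to 0.944 (Pearson's r over genes), with GTML tumors 3 and 4 and GTS tumor 1 lowest on average. Of 12 microglia and macrophage markers 1, Cd68, was in the line table, beside 9 of 12 medulloblastoma and neuronal progenitor markers and 4 of 8 astrocyte markers. Mycn, the gene that DOX is meant to silence, was lower under DOX in both lines, by 3.59 on the log2 scale in GTML3 and by 4.86 in preGTS1, and its reads cannot be divided between the transgene and the mouse's own gene.

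The promoters of 5 members are shown because their genes carry the results that follow. They belong to Mrpl12, which had the most negative DOX response in both lines; Mrps22, the next in preGTS1; Mrpl49, the 1 member that rose in GTML3; Mrps12, a decoding-site protein that shares its start region with a tRNA synthetase gene; and Mrpl17, the member that differed most between the single-cell libraries. Each window runs from 250 bases before to 50 bases after the start, 5′ to 3′ along the gene, from RefSeq on GRCm38.p6: chr11:120484387-120484686 (+) for Mrpl12, chr9:98601630-98601929 (-) for Mrps22, chr19:6057706-6058005 (-) for Mrpl49, chr7:28741772-28742071 (-) for Mrps12 and chr7:105811038-105811337 (-) for Mrpl17. Capitals mark matches on either strand to the ETS motif CCGGAAG, the NRF1 motif GCGCATGC and the YY1 motif AAGATGGC.
Mrpl12: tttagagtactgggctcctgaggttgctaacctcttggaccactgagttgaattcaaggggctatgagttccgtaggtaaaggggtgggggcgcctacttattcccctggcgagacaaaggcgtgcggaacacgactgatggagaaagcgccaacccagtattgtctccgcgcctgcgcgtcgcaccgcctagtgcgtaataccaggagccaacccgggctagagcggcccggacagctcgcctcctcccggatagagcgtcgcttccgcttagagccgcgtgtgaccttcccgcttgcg
Mrps22: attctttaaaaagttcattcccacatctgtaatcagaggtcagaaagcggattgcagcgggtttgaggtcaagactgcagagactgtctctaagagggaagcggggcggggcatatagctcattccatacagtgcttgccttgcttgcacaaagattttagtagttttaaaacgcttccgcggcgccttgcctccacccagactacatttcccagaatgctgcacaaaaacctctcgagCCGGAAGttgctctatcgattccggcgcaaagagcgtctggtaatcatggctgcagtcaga
Mrpl49: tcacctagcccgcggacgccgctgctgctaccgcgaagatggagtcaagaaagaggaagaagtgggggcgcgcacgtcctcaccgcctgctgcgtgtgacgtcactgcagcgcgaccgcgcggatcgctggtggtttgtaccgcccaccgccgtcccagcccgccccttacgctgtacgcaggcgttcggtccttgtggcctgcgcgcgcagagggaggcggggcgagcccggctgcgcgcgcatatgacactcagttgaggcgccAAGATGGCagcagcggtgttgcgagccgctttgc
Mrps12: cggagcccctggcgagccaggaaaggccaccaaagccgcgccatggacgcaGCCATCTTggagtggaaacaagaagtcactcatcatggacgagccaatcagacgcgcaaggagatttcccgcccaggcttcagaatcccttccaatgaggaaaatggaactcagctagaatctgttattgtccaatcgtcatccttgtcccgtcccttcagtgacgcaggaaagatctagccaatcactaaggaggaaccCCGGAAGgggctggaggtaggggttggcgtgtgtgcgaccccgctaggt
Mrpl17: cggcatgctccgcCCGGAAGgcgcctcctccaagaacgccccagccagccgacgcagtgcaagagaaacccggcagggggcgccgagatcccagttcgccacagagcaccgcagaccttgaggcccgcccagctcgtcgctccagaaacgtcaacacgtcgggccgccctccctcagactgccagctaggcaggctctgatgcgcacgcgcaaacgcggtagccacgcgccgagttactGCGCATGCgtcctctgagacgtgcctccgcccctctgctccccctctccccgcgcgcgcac
Mrps22 held an ETS match starting 11 bases before the start and Mrpl17 an NRF1 match at the same distance, with an ETS match farther up. Mrpl49 had a YY1 match 17 bases into the gene. Mrps12 had an ETS match 2 bases into the gene and, apart from it at position -199 from the start, a YY1 match on the other strand. Mrpl12 held none of the marked motifs.

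RefSeq promoters were found for 69 of 78 member genes, as 75 windows on 16 chromosomes with at most 10 member genes on any of them. The ETS letters stood in 34.7% of the member windows, 16.7% of the 12880 windows of genes in the line table and 8.86% of all 32851 windows. The YY1 letters stood in 16.0%, 4.22% and 2.75% of the same sets, and the NRF1 letters in 10.7%, 5.19% and 2.71%. The E-box CACGTG, a MYC family motif, stood in 9.33% of member windows against 9.84% of line-table windows, and the GC box GGGCGG in 52.0% against 62.6%. Shares are of windows and not of genes. A gene can have several windows, and those of Mrpl2, each with an E-box, overlap, so that letters they share are counted more than once. Member windows averaged close to line-table windows in base content, with 58.7% and 61.0% GC. The last 3 letters of the ETS motif are the first 3 of the YY1 motif, so that these can overlap. A match is a description of letters and not a bound site, and no match says only that these letters are not in this window.

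In GTML3 cells under DOX, most mitochondrial ribosomal protein genes were lower than under DMSO. Of 76 members 61 fell and 1 rose, against 31.4% of all 15926 genes lower and 34.5% higher in the same fit (limma, adjusted p under 0.05 over all genes), and the members' median log2 fold change was -0.55 where that of all genes was 0.05. Summed over the members, the level was 2879, 3275 and 3307 CPM (reads per 1000000 library reads) under DOX and 4837, 4751 and 4724 CPM under DMSO, so the condition sums did not overlap. CPM is a share of each library, so in these and all bulk values fewer cells of a type and less RNA per cell cannot be told apart.

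Mrpl12, the stalk protein that in human also binds the mitochondrial RNA polymerase, stood at 37.8, 39.1 and 40.3 CPM in GTML3 under DOX, against 139, 110 and 116 CPM under DMSO. All DOX samples lay far below all DMSO samples, and the difference of -1.63 (log2, SE 0.117, limma adjusted p = 6.34e-09) was the most negative of any member. Mrps35, a small-subunit protein found only in mitochondria, read 17.5, 22.7 and 21.4 CPM under DOX and 67.8, 61.8 and 57.9 CPM under DMSO (-1.61, SE 0.0978, limma adjusted p = 8.77e-10). Mrpl42 of the large subunit read 16.7, 22.4 and 24.0 CPM under DOX and 63.4, 61.7 and 60.0 CPM under DMSO (-1.57, limma adjusted p = 1.28e-07). Both genes were low in every DOX sample and did not overlap between conditions. The next most negative values were those of the bacterial-type proteins Mrpl13 (-1.25), Mrps28 (-1.17), Mrpl18 (-1.16) and Mrps2 (-1.06) and of Mrps22 (-1.05), a small-subunit protein mutated in a human respiratory chain disease.

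The 1 member that rose in GTML3 was Mrpl49, a large-subunit protein, with 94.2, 105 and 104 CPM under DOX and 71.3, 76.3 and 78.6 CPM under DMSO (0.42, SE 0.0898, limma adjusted p = 0.000641). Every DOX sample was above every DMSO sample. Fau, whose start lies within 1 kb of that of Mrpl49 and which encodes a cytosolic ribosomal protein, fell in the same samples (-0.53, limma adjusted p = 0.00115). Among the members that did not pass the test were Mrps18a (0.14, adjusted p = 0.164), one of the 3 paralogues of the bacterial protein S18, Mrps6 (0.12) and Mrpl41, which read 25.2, 32.7 and 32.6 CPM under DOX and 30.8, 30.2 and 27.6 CPM under DMSO (0.02). The other S18 paralogues fell, Mrps18b by 0.80 and Mrps18c by 0.56. The fall of Mrps34 (-0.30, limma adjusted p = 0.0458) missed the threshold without any 1 of 5 of the 6 GTML3 samples (values -0.22 to -0.34), and that of Mrps36 (-0.60, adjusted p = 0.0362) without DMSO sample 1 or 3 or DOX sample 1, where its value was -0.46, -0.64 and -0.26. In preGTS1 Mrps36 was at -0.70 (adjusted p = 0.0163) and missed the threshold without DMSO sample 3 (-0.57).

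In preGTS1 cells under DOX, 74 of 76 members fell and 0 rose, against 33.7% of all genes lower and 34.5% higher (limma). Every member's limma estimate was negative, the highest at -0.17, so no p threshold could call a member higher. With edgeR and DESeq2 on the recovered reads 0 were called higher too. The median of the members was -0.96 and that of all genes 0.04. Summed member levels were 2594, 2631 and 2482 CPM under DOX and 5228, 5446 and 5626 CPM under DMSO. The DOX sums lay below those of GTML3 under DOX, and the DMSO sums above those of GTML3 under DMSO.

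Mrpl12 again had the most negative response, with 47.8, 62.2 and 52.3 CPM in preGTS1 under DOX and 181, 189 and 235 CPM under DMSO (-1.90, SE 0.117, limma adjusted p = 8.36e-10). Mrps22 read 23.6, 19.0 and 23.6 CPM under DOX and 90.6, 87.1 and 65.5 CPM under DMSO (-1.87, SE 0.136, limma adjusted p = 5.82e-09). The DOX samples of both genes lay below all their DMSO samples, and the DMSO samples were the more spread ones. Mrpl15, a bacterial-type protein of the large subunit, read 62.6, 54.3 and 65.0 CPM under DOX and 203, 215 and 193 CPM under DMSO (-1.75, limma adjusted p = 5.31e-11). Mrps27, an RNA-binding protein of the small subunit, read 11.2, 11.8 and 12.6 CPM under DOX and 39.6, 40.5 and 39.0 CPM under DMSO (-1.75, SE 0.0855, limma adjusted p = 5.19e-11). Both were tight within each condition and apart between them.

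The next most negative values in preGTS1 were Mrpl42 (-1.64), Mrpl28 (-1.58), Mrpl40 (-1.55) and Mrpl22 (-1.52), all of the large subunit. Members mutated in human disorders of mitochondrial translation fell too, among them Mrpl3 by 1.34, Mrps34 by 0.93 and Mrpl44, which has a ribonuclease III fold, by 0.85. Mrpl11, at the base of the stalk, fell by 1.10 and Mrps12 by 0.78. Only Mrpl41 (26.0, 35.1 and 26.3 CPM under DOX, 28.6, 30.0 and 40.0 CPM under DMSO; -0.17, limma adjusted p = 0.315) and Mrpl57 (-0.33, adjusted p = 0.0623) did not pass the test. Mrpl58, the peptidyl-tRNA hydrolase built into the large subunit, is listed in the line table under its older symbol Ict1 and so lies outside the rule. It fell by 0.30 in GTML3 and by 0.56 in preGTS1 (limma adjusted p = 0.00828 and 4.79e-05).

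**Figure D1:**
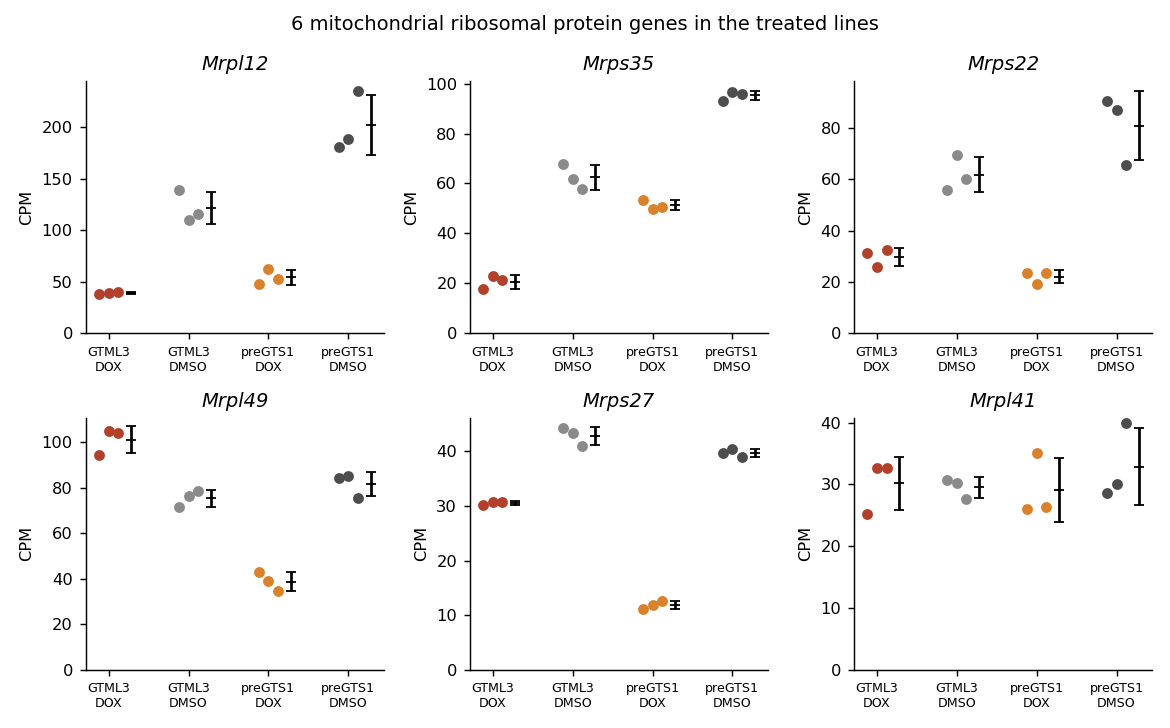
CPM (y axis) of 6 members in every line sample, by line and treatment (x axis), with bars for the mean and SD of 3 samples. Mrpl12 reads 37.8 to 40.3 CPM in GTML3 under DOX and 110 to 139 under DMSO, Mrpl49 is higher under DOX in GTML3 and lower under DOX in preGTS1, and Mrpl41 overlaps between treatments in both lines.

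The responses were also read by place in the ribosome. In GTML3 24 of 30 bacterial-type large-subunit genes fell (median -0.54), 13 of 19 mitochondria-specific large-subunit genes fell and 1 rose (-0.51), 14 of 16 bacterial-type small-subunit genes fell (-0.83) and 9 of 10 mitochondria-specific small-subunit genes fell (-0.66). In preGTS1 30 of 30 genes (median -1.16), 17 of 19 (-0.96), 16 of 16 (-0.90) and 10 of 10 (-0.97) fell in the same 4 classes. The order of the class medians thus differed between the lines, with small-subunit bacterial types lowest in GTML3 and large-subunit bacterial types lowest in preGTS1.

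The DOX responses overlapped widely between members with and without a given motif. Members with an ETS match had a median response of -0.52 in GTML3 and -0.89 in preGTS1 (n = 24), and members without one -0.62 and -0.98 (n = 43). The 12 members with a YY1 match had medians of -0.69 and -0.95, beside -0.54 and -0.97 for the 55 without. The 5 members with an E-box lay between -0.87 and -0.56 in GTML3 and between -1.22 and -0.94 in preGTS1, inside the range of the 62 without.

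The members fell further in preGTS1 than in GTML3. The difference of responses, tested as an interaction in the fit of all 4 groups, was negative for 41 of 76 members and positive for 1, against 25.1% and 17.1% of all genes, with a median of -0.43 for members and -0.10 for all genes. In 67 of 76 members the response was more negative in preGTS1. The 60 members that fell in both lines were 98.4% of those that fell in GTML3 and 81.1% of those that fell in preGTS1. Over the 76 members the 2 responses correlated with r = 0.49, a description over genes, beside r = 0.66 over all 15926 genes. Mycn itself had a larger fall in preGTS1 (difference -1.27, limma adjusted p = 0.000324), and the part of this in the members' difference was not tested.

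Mrpl49 differed most between the lines. In preGTS1 it read 42.8, 38.8 and 34.6 CPM under DOX and 84.0, 85.1 and 75.5 CPM under DMSO (-1.08), where in GTML3 it had risen by 0.42, and the difference of responses was -1.50 (SE 0.127, limma adjusted p = 2.89e-07). Under DMSO its values in the lines overlapped, and under DOX they did not. The responses of its neighbour Fau did not differ past the threshold between the lines (0.03, SE 0.17, adjusted p = 0.888).

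Mrps27 stood at 30.1, 30.7 and 30.7 CPM in GTML3 under DOX and 44.2, 43.3 and 41.0 CPM under DMSO (-0.49), which with its fall in preGTS1 gave a difference of -1.26 (SE 0.121, limma adjusted p = 1.12e-06). Mrpl28 averaged 92.9 ± 8.70 CPM in preGTS1 under DOX and 278 ± 13.6 CPM under DMSO, and 167 ± 18.5 CPM in GTML3 under DOX and 254 ± 4.81 CPM under DMSO (SD, n = 3 each). Its level was close between lines under DMSO and lower in preGTS1 under DOX, with a difference of responses of -0.98 (limma adjusted p = 2.58e-05). Mrpl48 (-0.97), Mrpl39 (-0.91), Mrps33 (-0.91), Mrpl9 (-0.88) and Mrpl45 (-0.87), which in human holds the ribosome to the inner membrane, followed. Mrpl48, Mrpl39 and Mrps33 had not passed the test in GTML3.

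Mrps35 was the 1 member whose response was less negative in preGTS1 by the interaction test (limma), where DESeq2 called 2. It read 53.4, 49.7 and 50.7 CPM in preGTS1 under DOX and 93.2, 96.6 and 96.0 CPM under DMSO (-0.90), against -1.61 in GTML3, a difference of 0.72 (SE 0.138, limma adjusted p = 0.000735). The differences of Mrpl12 (-0.26, SE 0.166, adjusted p = 0.214) and Mrps30 (-0.19, adjusted p = 0.298) did not pass. By class, 19 of 30 bacterial-type and 11 of 19 mitochondria-specific large-subunit genes had a more negative response in preGTS1 by this test, as did 5 of 16 bacterial-type small-subunit genes and 6 of 10 mitochondria-specific ones, with medians of -0.48, -0.48, -0.13 and -0.58.

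**Figure D2:**
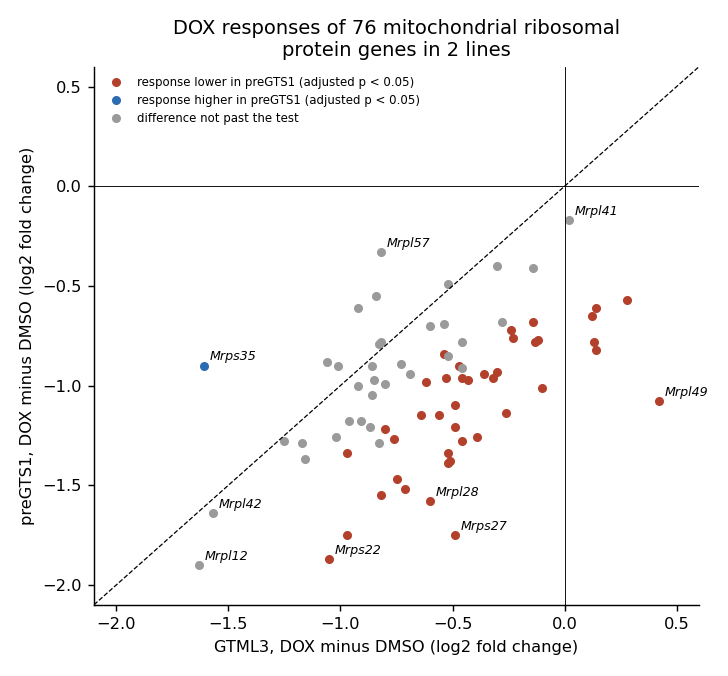
Log2 fold change of DOX over DMSO in GTML3 (x axis) and preGTS1 (y axis), 1 point for each of 76 members, with the dashed line of equal responses. Points in red had a more negative response in preGTS1 by the interaction test (41 members) and Mrps35, in blue, a less negative one; 67 of 76 points lie below the line, and Mrpl49 stands apart with 0.42 in GTML3 and -1.08 in preGTS1.

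The members were also compared between the lines under each treatment. Under DMSO their median and the share of them higher in preGTS1 lay near those of all genes. Under DMSO 31 of 76 members were higher in preGTS1 than in GTML3 and 12 lower, against 38.5% and 27.9% of all genes, with a median of 0.15 beside 0.13 for all genes. With that shift of all genes centred away the split was 25 higher and 17 lower. Under DOX 13 members were higher in preGTS1 and 40 lower, against 36.9% and 35.0% of all genes (median -0.29, all genes 0.02), and 7 higher and 46 lower after centring. Both comparisons share the line samples with the DOX responses above.

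Mrpl1, the protein of the large subunit's L1 arm, was the lowest relative to GTML3 in both conditions. It read 29.1, 35.3 and 24.8 CPM in preGTS1 under DMSO, against 69.5, 84.8 and 81.5 CPM in GTML3 under DMSO (-1.41, SE 0.133, limma adjusted p = 1.83e-07). Under DOX it read 16.8, 13.6 and 17.5 CPM in preGTS1 and 49.0, 42.9 and 50.2 CPM in GTML3 (-1.58, limma adjusted p = 3.57e-08). Its groups did not overlap in either condition, and its DOX responses were close, -0.89 in preGTS1 and -0.73 in GTML3. Mrps16 (-0.97 and -1.12 under DMSO and DOX) and Mrps6 (-0.68 and -1.44), small-subunit proteins of bacterial type, were also lower in preGTS1 in both conditions.

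Mrpl52 was the highest in preGTS1 under DMSO, with 31.2, 41.3 and 33.9 CPM against 13.7, 15.5 and 17.2 CPM in GTML3 (1.19, SE 0.149, limma adjusted p = 4.04e-06). It kept that distance under DOX, with 25.6, 27.8 and 22.2 CPM in preGTS1 and 8.78, 12.4 and 11.3 CPM in GTML3 (1.22). Mrpl55 (0.99), Mrps33 (0.97), Mrpl45 (0.93), Mrpl38 (0.85), Mrpl33 (0.82), Mrpl10 (0.82) and Mrpl35 (0.80) followed under DMSO, all with adjusted p under the threshold of 0.05. Under DOX the highest member was Mrps35 (1.33, limma adjusted p = 7.18e-09), then Mrpl52, Mrpl57 (1.01) and, among others, Mrpl12 (0.46). The most negative after Mrpl1 were Mrpl48 (-1.57), Mrps6, Mrpl49 (-1.39), Mrps27 (-1.37) and Mrpl3 (-1.23).

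Other gene lists of mitochondrial gene expression were counted in the same fit, where 31.4% of all genes fell and 34.5% rose in GTML3 and 33.7% fell and 34.5% rose in preGTS1. Of 7 mitochondrial ribosome subunits with other names 6 fell in GTML3 and 7 in preGTS1 (medians -0.88 and -0.89), with Ptcd3 at -1.13 and -1.66 and Chchd1 at -0.92 and -1.64. Of 24 assembly factors 10 fell and 3 rose in GTML3 and 17 fell and 1 rose in preGTS1 (medians -0.20 and -0.53). The GTPase gene Gtpbp10 among them was at -1.14 and -2.30. Of 14 translation factors 7 fell and 2 rose in GTML3 and 12 fell in preGTS1, with the elongation factors Gfm1 at -1.52 and -1.79 and Tsfm at -1.44 and -1.86. Of 18 aminoacyl-tRNA synthetases 12 fell and 2 rose in GTML3 and 15 fell in preGTS1. Among these Yars2 stood at -1.66 and -1.86, and Sars2, which lies head to head with Mrps12, at -0.50 and -0.66, beside -0.46 and -0.78 for Mrps12. Of 10 genes for transcription and replication of mitochondrial DNA 7 fell in GTML3 and 8 in preGTS1, among them Tfam (-0.91 and -1.31).

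Cytosolic ribosomal protein genes and the nuclear genes of the respiratory chain were set beside the members. Of 84 cytosolic ribosomal protein genes 81 fell in GTML3 (median -0.84) and 71 fell and 2 rose in preGTS1 (-0.99). By the interaction test 17 of them had a more negative and 8 a less negative response in preGTS1, with a median difference of -0.11. Between the lines, 75 of the 84 were higher in preGTS1 under DMSO and 3 lower (median 1.21), and 67 were higher and 4 lower under DOX (1.01). Of 82 respiratory chain genes 42 fell and 5 rose in GTML3 (-0.29) and 58 fell and 1 rose in preGTS1 (-0.58), and 36 had a more negative response in preGTS1. S-phase and G2/M genes moved with all of these: 20 of 20 S-phase genes fell in each line, with medians of -3.00 and -3.09, as did 19 and 20 of 20 G2/M genes (-2.89 and -3.56), and their part in the members' fall was not tested. Sox9 rose by 2.24 in GTML3 and by 2.13 in preGTS1, and Myc by 4.70 and 3.85 (limma adjusted p = 1.86e-06 and 1.4e-05). In GTML3 Myc stayed below a CPM of 1 in every sample. It read -6.16, -6.16 and -3.97 log2 CPM under DMSO, where -6.16 is the floor of 0 reads, and -0.5, -1.32 and -0.39 under DOX. In preGTS1 Myc read -0.04, 0.58 and 0.6 log2 CPM under DMSO and 4.2, 4.22 and 4.28 under DOX.

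Cell type markers moved with the treatment too. Of 9 medulloblastoma and neuronal progenitor markers, a mixed list, 4 rose and 4 fell in GTML3 (median 0.58) and 7 rose in preGTS1 (1.71). Their sum in GTML3 was 2120 to 2170 CPM under DOX and 1400 to 1470 CPM under DMSO. In preGTS1 it was at least 1540 CPM under DOX and at most 560 CPM under DMSO. Of 4 astrocyte markers 2 rose and 1 fell in GTML3 (0.39) and 3 rose and 1 fell in preGTS1 (1.65), with sums of 470 to 590 CPM under DOX and 141 to 158 CPM under DMSO in GTML3, and 843 to 875 CPM and 259 to 284 CPM in preGTS1. Gfap, Aqp4, Aldh1l1 and S100b of the astrocyte list were not in the line table. The part of these markers in the members' fall was not tested.

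**Figure D3:**
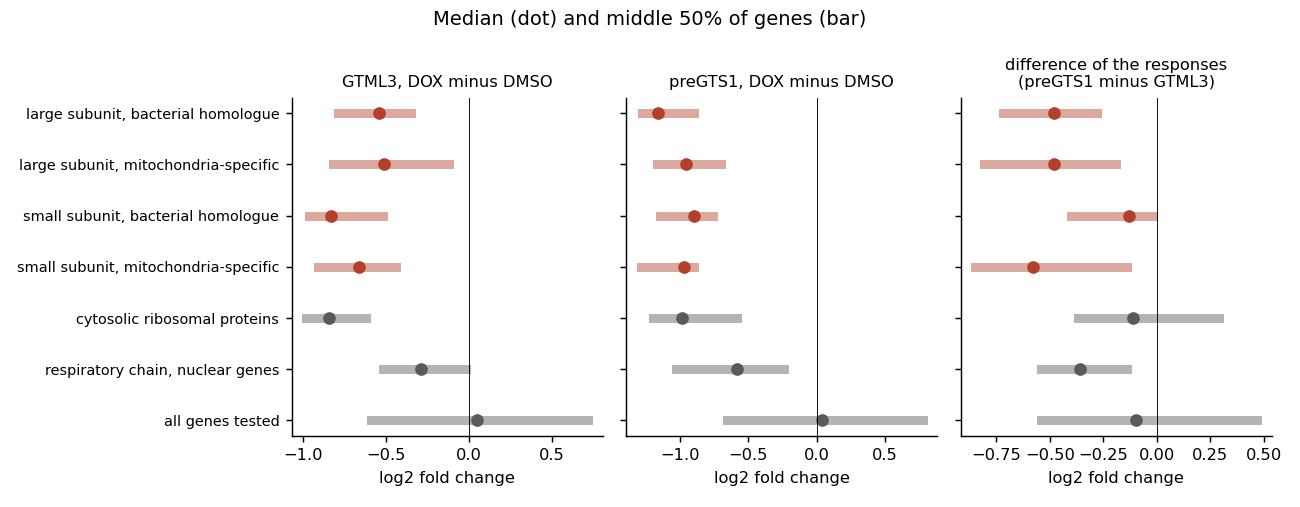
Median log2 fold change (dot) and middle 50% of genes (bar) for the 4 subunit classes, cytosolic ribosomal proteins, nuclear respiratory chain genes and all genes, in 3 comparisons. The subunit classes lie between -0.83 and -0.51 in GTML3 and between -1.16 and -0.90 in preGTS1 under DOX, beside 0.05 and 0.04 for all genes.

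In the tumors no member passed the test. Of 75 members with enough reads (Mrps34 reached a CPM of 1 in only 3 tumors) 0 were higher and 0 lower in GTS tumors than in GTML tumors by limma with a batch term, against 0.0573% of all 15708 genes (0.0509% higher and 0.00637% lower). Only 4 members, all lower in GTS tumors, had an unadjusted p under 0.05, where 19.5% of all genes did. The median difference of the members was -0.14 and that of all genes -0.07, and the summed member level averaged 2688 CPM in GTS tumors (2363 to 3106) and 3409 CPM in GTML tumors (2788 to 4152). In simulated data the same test recovered 22% of changes of 1 and 49% of changes of 2 on the log2 scale. These changes were planted in genes drawn from all genes, each with its own spread. Members spanned less over the tumors than all genes (median 1.22 against 2.99 log2 units), so recovery among members was not measured.

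The tumors fell into 2 batches by a number in their column names, which no label explains and which was read as a batch, one of 8 with 2 GTS and 6 GTML tumors and one of 6 with 4 GTS and 2 GTML tumors. The members' median was 0.10 within the larger batch and -0.34 within the smaller, and 42 of 75 members had opposite signs, 27 were lower in GTS tumors in both and 6 higher in both. Other lists moved between the tumor kinds without a called gene. S-phase genes had a median of -0.93, with summed levels of 799 to 3140 CPM in GTS tumors and 2470 to 4070 CPM in GTML tumors. Medulloblastoma and neuronal progenitor markers had a median of -1.05, astrocyte markers of 1.68 and microglia and macrophage markers of 0.59. The microglia and macrophage sums were 301 to 815 CPM in GTS tumors and 173 to 680 CPM in GTML tumors. The part of these lists in the members' values was not tested. Cytosolic ribosomal protein genes had a median of -0.27 and respiratory chain genes of 0.09.

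Mrpl37, a large-subunit protein found only in mitochondria, was the 1 member whose tumor kinds did not overlap. It had a lowest, median and highest value of 5.70, 5.88 and 6.15 log2 CPM in GTS tumors, against 6.43, 6.69 and 7.08 in GTML tumors. The difference was -0.81 (SE 0.148, limma adjusted p = 0.0629), -0.63 within the larger batch and -1.01 within the smaller. It passed the test without GTS tumor 2 (adjusted p = 0.0185) or GTS tumor 3 (0.0314), and with no batch term (0.011), where 5.88% of all genes were called. With the batch term it did not pass without any other 1 tumor (limma adjusted p = 0.0647 to 0.19), nor after median centring (-0.70, limma adjusted p = 0.242). The other 3 members with an unadjusted p under 0.05 were Mrps9 (-0.46, limma adjusted p = 0.186), Mrpl38 (-0.33, adjusted p = 0.235) and Mrpl15 (-0.41, adjusted p = 0.244), and in all of them GTS and GTML tumors overlapped.

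The most negative differences belonged to members with a wide spread among GTML tumors. Mrps30 read 2.90, 4.06 and 4.55 log2 CPM (lowest, median, highest) in GTS tumors and 2.75, 5.64 and 7.13 in GTML tumors (-1.47, limma adjusted p = 0.288). GTML tumors 1 to 4 stood at 7.13, 6.82, 6.54 and 6.59, above all GTS tumors, while the other 4 GTML tumors stood at 2.75, 3.81, 4.73 and 4.74, beside 2.90 to 4.55 in the GTS tumors. Mrps27 (-1.27, adjusted p = 0.334) was split in the same way, with 6.94, 6.25, 6.06 and 6.04 in GTML tumors 1 to 4 and 2.85 to 4.39 in the rest. Mrps18b (-1.32, adjusted p = 0.31) and Mrps10 (-1.26) were high in GTML tumors 3 and 4 alone, at 5.90 and 5.67 for Mrps18b and 7.54 and 6.96 for Mrps10, and Mrpl13 (-1.37) in GTML tumors 2 to 4. Over the 14 tumors 19 of 76 members spanned 3 or more log2 units, beside 49.9% of all genes, and the median span was 1.22 for members and 2.99 for all genes.

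Mrpl12, Mrps22 and Mrps35, which had fallen under DOX in the lines, did not pass the test in the tumors. Mrpl12 read 4.38, 4.84 and 5.03 log2 CPM in GTS tumors and 4.50, 4.95 and 5.12 in GTML tumors (-0.14, SE 0.215, limma adjusted p = 0.724), Mrps22 differed by 0.10 (adjusted p = 0.864) and Mrps35 by 0.33 (adjusted p = 0.486). The highest value was that of Mrpl41 (0.38, adjusted p = 0.376). Mycn differed by -0.63 (adjusted p = 0.205) and Sox9 by 1.73 (adjusted p = 0.181).

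**Figure D4:**
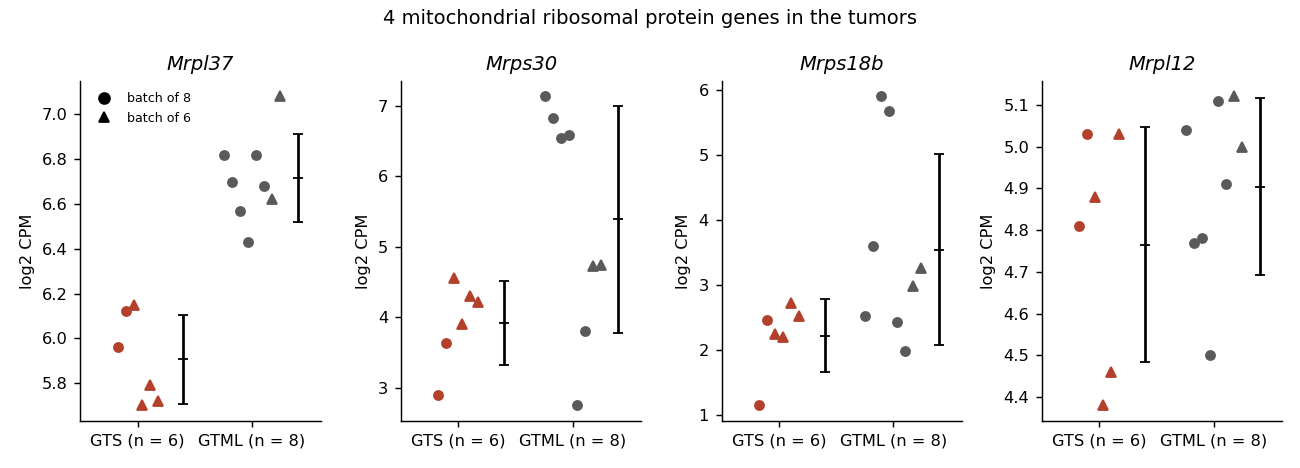
Log2 CPM (y axis) of Mrpl37, Mrps30, Mrps18b and Mrpl12 in 6 GTS and 8 GTML tumors, circles for the batch of 8 and triangles for the batch of 6, with mean and SD. Mrpl37 does not overlap between tumor kinds, Mrps30 splits the GTML tumors into 4 at 6.54 to 7.13 and 4 at 2.75 to 4.74, and Mrpl12 overlaps throughout.

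Open chromatin was read at the members' starts. Under DOX, member regions past 1.5-fold went both ways. Duplicates gave a chi-square per degree of freedom of 1.88 to 2.05. It was similar at low and high depth, 1.95 for GTML3 under DOX (0.9686 and 0.8274 M reads) and 2.05 for GFP (8.964 and 12.82 M). Whether duplicates differed by more than counting noise was not tested. In member regions the duplicates differed by up to 2.21 on the log2 scale in GTML3 under DOX. They were merged as 1 sample by choice and no test was made, and a region is counted past 1.5-fold on log2(CPM + 1), which understates weak regions. In GTML3 12 of 70 member regions were past it (6 higher and 6 lower under DOX, 17.1%), against 47.0% of all 88981 regions (25.1% higher and 21.9% lower) and 23.9% of the 13445 regions within 1 kb of any start. In preGTS1 7 were past it (4 higher and 3 lower, 10.0%), against 41.1% of all regions (21.9% higher and 19.3% lower) and 17.8% of those near starts. With 1 duplicate left out, member regions past it numbered 15 to 19 in GTML3, highest without duplicate 1 under DOX, and 9 to 11 in preGTS1, highest without either DOX duplicate. The members' median change was 0.0699 in GTML3 and 0.0981 in preGTS1, where their RNA medians were negative. A start within 1 kb of another gene's start was common, 16 of 70 member regions (22.9%) against 5.41% of the 13445, and in such regions the signal cannot be given to 1 gene.

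The region of Mrpl28 (mm9 chr17:26259816-26260718) was the lowest under DOX in GTML3, at 5.162 and 2.417 CPM in the DOX duplicates and 15.45 and 17.96 CPM in the DMSO duplicates (-1.85). At the start of Mrpl12 (mm9 chr11:120345506-120346281) the merged signal was 6.125 CPM under DOX and 12.29 CPM under DMSO in GTML3 (-0.899), while in preGTS1 it was 11.67 CPM under DOX and 11.90 CPM under DMSO. The DOX duplicates of Mrpl12 in GTML3 were 3.097 and 9.669 CPM, on both sides of the lower DMSO duplicate of 9.153 CPM. The GTML3 DOX libraries held 0.9686 and 0.8274 M reads in regions, so the DOX values of Mrpl28 and Mrpl12 in GTML3 rest on few reads. Mrpl57 (-0.816), Mrpl1 (-0.799), Mrps15 (-0.757) and Mrps17 (-0.657) were lower too, and Mrpl11 (0.830), Mrpl36 (0.812), Mrpl45 (0.669), Mrpl37 (0.651), Mrpl4 (0.636) and Mrpl52 (0.610) higher. In preGTS1 Mrpl1 (-0.969), Mrps30 (-0.876) and Mrpl39 (-0.666) were lower under DOX, and Mrpl38 (0.918), Mrps18b (0.642, a region shared with Ppp1r10), Mrpl49 (0.619, shared with Fau) and Mrpl48 (0.592) higher. In GTML3 52 members with a region had lower RNA under DOX, of which 6 regions were lower and 6 higher; in preGTS1 it was 64 members, with 3 regions lower and 4 higher. Over 66 genes the correlation of RNA change and region change was r = 0.28 in GTML3 and 0.10 in preGTS1, as a description over genes that share libraries.

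Between the lines, more member regions past the threshold were lower in preGTS1 than higher, and regions near starts in general leaned the same way. Under DMSO 21 of 70 member regions were past 1.5-fold between preGTS1 and GTML3 (6 higher, 15 lower, 30.0%), against 50.6% of all regions (35.3% higher and 15.3% lower) and 42.2% of the 13445 regions near starts (2203 higher, 3471 lower). The median was -0.193 for members and -0.207 for regions near starts. Under DOX it was 19 (6 higher, 13 lower, 27.1%), against 55.5% of all regions (38.0% higher and 17.5% lower) and 45.1% of those near starts (2565 higher, 3504 lower). The count under DOX was 22 to 30 with 1 duplicate left out, highest without duplicate 1 of GTML3 under DOX. Of 11 members with lower RNA in preGTS1 under DMSO and a region, 4 had a lower region and 0 a higher one. Mrpl1 was one of them: its region (mm9 chr5:96638426-96639486) held 43.96 CPM in preGTS1 under DMSO and 67.57 CPM in GTML3 under DMSO (-0.609). The same region held 25.49 CPM in GTS1 (-1.37 against GTML3 under DMSO) and 34.12 CPM in GTS2 (-0.965).

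Set against GTML3 under DMSO, 34 of 70 member regions in GTS1 (18 higher, 16 lower, 48.6%) and 33 in GTS2 (26 higher, 7 lower, 47.1%) were past 1.5-fold. Of all regions 59.1% were past it in GTS1 (30.2% higher and 28.8% lower) and 65.1% in GTS2 (26.4% higher and 38.7% lower), and of those near starts 55.0% and 49.5%. These comparisons share the GTML3 control, and the titles do not say whether GTS1 and GTS2 had DOX. The region assigned to Mrpl34 held 251.9 CPM in GTS1 and 68.15 CPM in GTML3 under DMSO (1.87). The deposited annotation puts it 709 bases from the start of Mrpl34 and 559 bases from that of Abhd8, and the signal cannot be given to 1 of these genes. Mrpl11 was higher in both sources (2.06 in GTS1 and 1.63 in GTS2), as was Mrpl37 (1.30 and 1.66). The RNA of Mrpl37 had the opposite sign, at -0.81 between GTS and GTML tumors, with no overlap but not past the test (limma adjusted p = 0.0629). That RNA value is set against GTML tumors and the region values against the GTML3 line, so the samples differ. Mrps28 was lower in both (-1.26 and -0.967). Between the fractions GFP and NoneGFP 0 of 71 member regions were past 1.5-fold, against 7.05% of all regions (5.27% higher and 1.78% lower) and 1.53% of regions near starts, and the members' median was 0.0101.

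**Figure D5:**
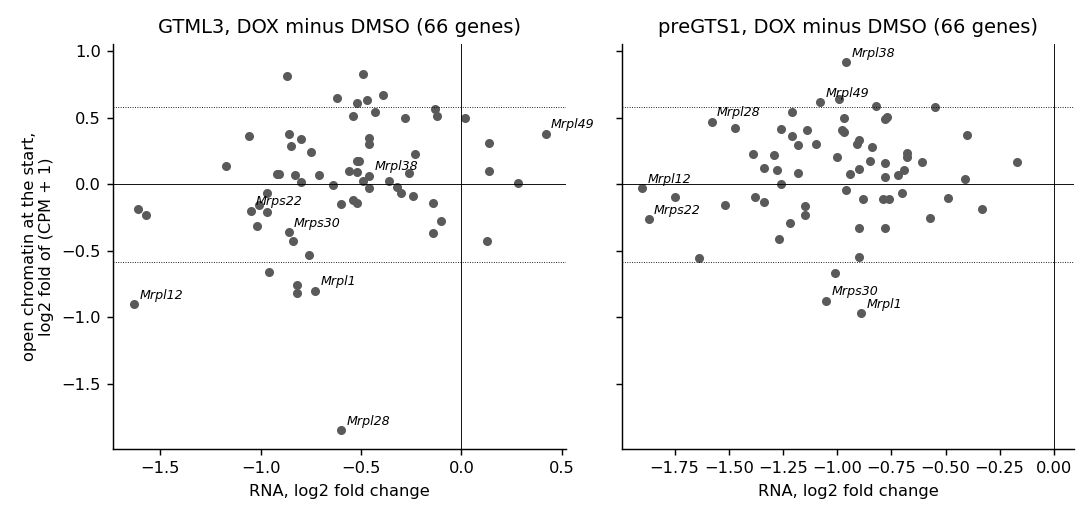
RNA log2 fold change (x axis) against log2 fold of region CPM + 1 (y axis) under DOX for 66 members in GTML3 and in preGTS1, with dotted lines at 1.5-fold. In both lines nearly all points lie left of 0 on the RNA axis while the regions scatter around 0, with medians of 0.0699 and 0.0981.

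In single cells the members took a slightly larger share of RNA in fGTS2. Of all UMIs, each of which tags 1 captured molecule, 1.01% came from the 78 members in fGTS2 and 0.907% in GTML_SOX9GFP, with 210 and 166 member UMIs in the median cell and 63 and 60 members detected in it. With 1 library per group there is no test, and intervals cover counting error only. Median depth was 20893.5 UMIs per cell in the 4498 fGTS2 cells and 18744 in the 4645 GTML_SOX9GFP cells, and 6 cell barcodes were shared. Of 77 members with enough UMIs 4 were more than 1.5-fold higher in fGTS2 and 0 lower (5.19%), against 11.0% of 8249 genes higher and 25.2% lower (36.3% either way), and the median log2 ratio was 0.139 for members and -0.207 for all genes. With the median of all genes centred away 16 members were past 1.5-fold higher, so the count rests on the scaling. Cytosolic ribosomal protein genes (4 higher and 1 lower of 81, median 0.157) and respiratory chain genes (11 higher and 1 lower of 86, median 0.253) gave similar medians.

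Mrpl17, near the exit of the peptide tunnel, held 357.1 CPM of UMIs in fGTS2 (95% exact Poisson interval 353.4 to 360.7) and 162.4 in GTML_SOX9GFP (159.9 to 165.0), a log2 ratio of 1.14. Mrps16 (137.8 and 87.43, a ratio of 1.58), Mrps36 (190.1 and 124.2, 1.53) and Mrps34 (133.7 and 88.13, 1.52) were the other 3 past 1.5-fold. The lowest ratio was that of Mrps6, with 44.03 and 64.40 CPM of UMIs (0.684). In the bulk tumors none of Mrpl17 (0.04), Mrps16 (-0.23) and Mrps6 (-1.10) passed the test.

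Since 3′ UMIs count molecules and not length, members were ordered by UMIs within each library. The treatment of reads that fit pseudogene copies is not given, so this order need not be that of RNA levels. The 5 members with the most UMIs in fGTS2 were Mrpl57 (396.4 CPM of UMIs), Mrpl17, Mrpl12 (351.4), Mrpl20 (329.5) and Mrps14 (313.3). In GTML_SOX9GFP they were Mrpl18 (315.9), Mrpl30 (311.6), Mrpl12 (305.5), Mrpl57 (304.4) and Mrpl42 (275.2). The lowest in both was Mrpl53, with 24 UMIs in all fGTS2 cells and 26 in all GTML_SOX9GFP cells, followed by Mrps2 (18.02 and 21.31 CPM of UMIs), Mrpl37 (24.50 and 29.35) and Mrps27 (26.51 and 27.69). Summed large-subunit UMIs were 2.39 times the summed small-subunit UMIs in fGTS2 and 2.44 times in GTML_SOX9GFP. The large-subunit classes list 30 bacterial-type and 21 mitochondria-specific genes, and the small-subunit classes 16 and 10. The sums were not divided by gene number, so the ratios say nothing of RNA per gene.

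Cells were also split by single marker genes within each library, and those with an Mki67 UMI had the higher member share in both. In fGTS2 the 2374 cells with a UMI of Mki67, a proliferation marker, held 104.9 member UMIs per 10000 UMIs and the 2124 cells without one 95.21, and after thinning each cell to 5000 UMIs 104.1 and 95.35 (48 and 92 shallower cells left out). In GTML_SOX9GFP the values were 91.58 in 3098 cells with and 88.00 in 1547 cells without (thinned 91.12 and 87.38, with 33 and 75 cells left out). Cells with a Sox9 UMI held 100.2 against 103.4 without in fGTS2 (2969 and 1529 cells) and 93.68 against 90.09 in GTML_SOX9GFP (607 and 4038 cells), opposite in direction between the libraries. For Mycn the values were 101.5 with and 100.7 without in fGTS2 and 91.20 with and 89.57 without in GTML_SOX9GFP. Cells of 1 library are not replicates, so these are descriptions, and a UMI from free RNA can place a cell on the wrong side. G2/M genes summed to 1888 CPM of UMIs in fGTS2 and 2712 in GTML_SOX9GFP, so the library with fewer G2/M UMIs had the higher member share, and the part of cycling in the difference between libraries was not tested.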

How the data were processed

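Groups and replicates came from the sample titles; each line RNA sample's description names the next column, so titles were followed. As deposited, bulk RNA values are log2 CPM per gene, ATAC values CPM per region and single-cell values whole UMI counts. Per the labels' protocols, Trizol and RNeasy extraction, Ion Torrent bulk libraries and 10x Chromium 3′ v3 chemistry were used. Tools in the submitters' processing notes are Subread 1.5.2, STAR 2.4.0, Cell Ranger 3.3.0, Seurat 3.0, Bowtie2 2.2, limma, edgeR and MACS2, with builds mm9 and mm10. Which tool made which table, strand use and the treatment of reads that fit pseudogene copies are not given in the sources used here.

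The deposited tumor values carry no batch difference (largest coefficient 1.78e-14), so a batch mean had been removed, and a model without a batch term has errors that are too small. Line and ATAC values gave whole reads for 100% of values within 0.1 read. ATAC duplicates (chi-square per degree of freedom 1.88 to 2.05) were merged as 1 sample; RNA replicates differed more (4.67 to 85.1), GTML3 DOX sample 1 most. One line of each ATAC table names no region and was left out. All columns of per-sample values were used. ATAC coordinates were taken as mm9, since the starts of Mrpl12, Mrps22, Mrps12 and Mrpl17 in them do not match GRCm38.p6.

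Genes needed a CPM of 1 in 6 tumors or in 3 line samples. Log2 CPM was tested with limma 3.58.1 (trend, robust) in R 4.3.3, over all genes, calling an adjusted p (Benjamini-Hochberg) under 0.05; tumors had a batch term and the 4 line groups shared 1 fit. On simulated data the line test recovered 48% of log2 changes of 0.5 and 98% of changes of 1, with 12% false among its calls. The simulation gave all genes the same dispersion and changed 100 of 15848 genes at each size. In the real GTML3 response 31.4% of genes were called lower and 34.5% higher, so these rates need not hold for the real calls. Alternatives were edgeR 4.0.16 and DESeq2 1.42.0 on recovered reads, other scalings, filters, thresholds and left-out samples. Single-cell genes needed a CPM of 10, and intervals are 95% exact Poisson. Doublets were not called.

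The members, gene lists and named genes were chosen with earlier results of these data known. Named were, in each RNA comparison, the 8 members with the largest called change each way (or lowest p where fewer than 3 were called), those called against the median's direction, members with a role of their own, the 5 highest and lowest in single cells, regions past 1.5-fold, and up to 3 genes per list.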

Additional observations from a re-analysis of the deposited data

Results flagged for a closer look

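In the tumors, 40 groups of member values were searched for a sample far from the rest of its group, a search in which chance alone picks about 1 group in 20. It picked 3 values: Mrpl44 in GTML tumor 4 at 4.71 log2 CPM, below the other GTML tumors at 5.38 to 5.84, Mrps18b in GTS tumor 1 at 1.15 log2 CPM, below the other GTS tumors at 2.21 to 2.73, and Mrps36 in GTML tumor 5 at 1.09 log2 CPM, below the others at 2.28 to 3.20. GTML tumor 4 and GTS tumor 1 were also among the 3 tumors with the lowest mean correlation to the other libraries (0.738 and 0.736).

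The DOX responses of members differed between preGTS1 and GTML3 by the interaction test (limma, adjusted over all genes), 41 with a negative and 1 with a positive difference. The 8 most negative differences, preGTS1 minus GTML3, and the positive one were -1.50 for Mrpl49, -1.26 for Mrps27, -0.98 for Mrpl28, -0.97 for Mrpl48, -0.91 for Mrpl39, -0.91 for Mrps33, -0.88 for Mrpl9, -0.87 for Mrpl45 and 0.72 for Mrps35. Mrpl49 is the 1 among them whose responses passed the test in opposite directions in the 2 lines.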

How the results depend on the processing

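Across 2612 values of named members under alternatives, 2469 kept their direction and side of the threshold, 66 lost the call, 25 gained one, 0 called values changed sign and 52 values that were not called changed sign. In the tumors the count of lower members was 1 with no batch term, 0 to 1 when each tumor was left out (1 without GTS tumor 2 or 3) and 1 to 2 when each was left out with no batch term, a choice made after seeing the data; in the batch of 8 tumors alone the members' median was reversed, at 0.10. Higher members in GTML3 under DOX numbered 1 to 2 when each sample was left out (2 without GTML3 DOX sample 1). Higher members in preGTS1 against GTML3 under DOX were 7 after median centring and 8 to 14 when each sample was left out (8 without GTML3 DOX sample 1). Members with a less negative response in preGTS1 were 2 by DESeq2 and 1 to 3 when each sample was left out (3 without preGTS1 DMSO sample 3, 2 without preGTS1 DOX sample 1). At a 2-fold threshold member regions past it numbered 1 for GTML3 DOX, 0 for preGTS1 DOX, 6 and 5 between the lines under DMSO and DOX, 16 for GTS1 and 9 for GTS2. When each ATAC duplicate was left out at 1.5-fold they numbered 15 to 19 for GTML3 DOX and 22 to 30 between the lines under DOX, highest without duplicate 1 of GTML3 under DOX, and 9 to 11 for preGTS1 DOX, highest without either of its DOX duplicates. In single cells higher members were 1 at 2-fold, 16 after median centring and 2 as a mean over cells, by which 1 was lower. The cause of these shifts was not tested. Replicate numbers did not pair the line samples (correlations of deviations -0.154 to 0.0684); with the number as a replicate block, 1 member rose and 56 fell in GTML3, 0 and 74 in preGTS1, the interaction was positive for 1 and negative for 37, and preGTS1 against GTML3 gave 29 and 11 under DMSO and 13 and 38 under DOX. The tumors' depth could not be recovered, and ATAC depth in GTML3 under DOX, down to 0.8274 M reads per library, limits weak regions.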
